A study of Homo sapiens with 6 samples.

Results

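The microRNA hairpin features are all rows that the deposited FPKM table types as miRNA, 43 of the 18999 features listed. Every row of that type was taken, whatever its values. They were compared between 3 libraries of MCF10A cells carrying the empty retroviral vector pMSCVpuro and 3 libraries of MCF10A cells carrying pMSCVpuro-pre-miR-203a, which holds the miR-203a hairpin. MCF10A is an immortalised, non-tumorigenic human mammary epithelial line, and both groups were transduced and selected with puromycin. The series was made to identify target genes of miR-203a. The labels give no time after transduction and do not say whether the 3 libraries of a group came from separate cultures, so the spread behind each p-value is that of these libraries alone and may be technical. The labels name total RNA as the molecule, while their extraction protocol describes an AGO2 immunoprecipitation before mRNA purification, and which of these applied cannot be settled from them.

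A microRNA begins as a long primary transcript, often the intron or exon of a host gene. In the nucleus the Drosha and DGCR8 complex cuts a hairpin out of it, and in the cytoplasm Dicer cuts the hairpin to a short duplex, of which 1 strand is loaded into an Argonaute protein. The seed, bases 2 to 8 of the mature strand, pairs with target mRNAs. Libraries of fragmented, longer RNA are not made to hold mature strands, so reads over a hairpin feature are usually read as fragments of primary transcripts or hairpins, and the values below are not levels of mature microRNAs.

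RefSeq entries (GRCh38.p14) matched 40 of the 43 hairpins by symbol, with 65 mature arms between them. The mature arms below belong to the 8 hairpins that passed the test and to MIR25, the uncalled hairpin with most reads. They are written 5′ to 3′ with the seed in capitals.

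miR-203a-3p: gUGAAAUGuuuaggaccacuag
miR-205-5p: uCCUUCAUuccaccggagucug
miR-221-3p: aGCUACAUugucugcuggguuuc
miR-222-3p: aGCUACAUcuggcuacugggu
miR-181b-5p: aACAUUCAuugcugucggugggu
miR-23b-3p: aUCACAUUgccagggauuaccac
miR-27b-3p: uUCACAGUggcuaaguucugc
miR-103a-3p: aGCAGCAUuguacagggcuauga
miR-25-3p: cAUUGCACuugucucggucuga

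The 65 arms held 64 distinct seeds, and the one shared seed was that of miR-221-3p and miR-222-3p. The other printed arms each had a seed of their own. The hairpins of the 4 best covered called features follow, each as 1 strand 5′ to 3′ with the mature arms of its RefSeq entries in capitals. They are shown whole because the reads counted here fall anywhere along these windows and not only on the arms. For MIR221 the entries used held only the 3′ arm, so lower case there does not mean that no other arm exists.

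MIR203A: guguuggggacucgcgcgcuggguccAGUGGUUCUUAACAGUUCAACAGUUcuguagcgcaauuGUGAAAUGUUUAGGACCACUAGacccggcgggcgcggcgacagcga
MIR205: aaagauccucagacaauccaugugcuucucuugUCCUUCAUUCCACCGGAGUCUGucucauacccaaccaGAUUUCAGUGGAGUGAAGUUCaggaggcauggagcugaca
MIR221: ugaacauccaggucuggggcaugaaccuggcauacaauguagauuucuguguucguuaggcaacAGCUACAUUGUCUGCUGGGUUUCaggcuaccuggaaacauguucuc
MIR222: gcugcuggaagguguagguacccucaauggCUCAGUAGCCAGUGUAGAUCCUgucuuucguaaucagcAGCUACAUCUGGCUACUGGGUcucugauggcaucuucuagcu

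The libraries held 15724554, 35084590 and 28721937 reads over listed features with the empty vector and 16658840, 20831785 and 7632063 with pre-miR-203a. FPKM, the deposited unit, is reads per kilobase of feature and per 1000000 reads over listed features, and RPM is the same without the length. The hairpin features are 53 to 110 bases long with a median of 84, so 1 read at the median length was worth 0.339 to 0.757 FPKM in the empty-vector libraries and 0.571 to 1.56 FPKM in the pre-miR-203a libraries. Of the 43 hairpins, 37 had fewer than 60 reads over all 6 libraries. In both libraries numbered 3 the hairpins were thin: 20 of the 42 hairpins other than MIR203A had 0 reads in empty-vector library 3 and 23 in pre-miR-203a library 3, against 0 to 5 in the other 4 libraries. Defining epithelial markers were present, with KRT5 at 353 to 702 FPKM, but the basal keratin KRT14 was at 0.724 to 1.84 FPKM. Summed over the marker lists, endothelial genes stayed at or below 0.339 FPKM and immune genes were at 0.741 to 1.09 FPKM with the empty vector and 2.44 to 3.85 FPKM with pre-miR-203a, most of it CSF1R. CD3E, LYZ and PTPRC were not listed, and CD79A was at or below 0.207 FPKM. The luminal list summed to 125 to 136 FPKM with the empty vector and 176 to 252 FPKM with pre-miR-203a, with 3 of its 4 tested genes called higher by the limma test described below. The basal list summed to 987 to 1261 FPKM and 950 to 1308 FPKM. 2 of its 7 genes, ITGB4 and CDH1, were called higher and KRT5 lower, where 6.59% of all features tested were called higher and 9.18% lower. TP63, not called, averaged 10.6 FPKM with the empty vector and 5.70 FPKM with pre-miR-203a (log2 fold change -0.81 ± 0.23 SE, limma adjusted p = 0.053). KRT17, not called either, averaged 217 FPKM and 388 FPKM (0.82 ± 0.36 SE, limma adjusted p = 0.18). The sum thus holds genes that moved in opposite directions. Of the called genes, ITGB4 lost its call in 10 of 13 other settings of the fit, the replicate block among them (limma adjusted p = 0.053). KRT5 lost its call in 4 of the 13 and CDH1 in 0. The fibroblast list summed to 3.89 to 6.91 FPKM and 5.53 to 9.50 FPKM, with 1 of 2 tested genes, COL1A1, called higher, a call lost in 2 of the 13 settings. KRT8, GATA3 and ELF3, the luminal genes called higher, were called in each of the 13. So was CSF1R, the 1 tested gene of the immune list, which was higher (log2 fold change 1.14 ± 0.18 SE, limma adjusted p = 0.0076). The part of these marker differences in the hairpin results was not tested.

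The hairpin that the vector carries was the most changed. MIR203A (chr14:104117405-104117514, plus strand, GRCh38, no gene spanning it in GENCODE 29) had 4.63, 5.44 and 6.96 FPKM with the empty vector and 19005, 3699 and 24945 FPKM with pre-miR-203a. In reads this was 8, 21 and 22 against 34827, 8476 and 20942. The groups did not overlap, and pre-miR-203a library 2 was the lowest of its group. The log2 fold change on the log2(FPKM + 1) scale was 10.83 ± 0.66 (SE, 3 libraries per group, limma adjusted p = 0.0014). By FPKM the hairpin ranked 1, 8 and 1 among all features in the pre-miR-203a libraries and 7430, 6886 and 5689 in the empty-vector libraries. It took 0.209%, 0.0407% and 0.274% of the reads of the pre-miR-203a libraries. Whether a read came from the vector or from chromosome 14 cannot be told apart here. MIR203B lies on the opposite strand of the same place, and the strand setting of the counting is not given in the sources used here.

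A feature entered the test with 1 FPKM or more in at least 3 libraries, which 40 of the 43 hairpins did. MIR3685, MIR4257 and MIR548D1 did not. An adjusted p under 0.05 in limma over all 11271 features tested counted as a call. 8 hairpins were higher with pre-miR-203a, MIR203A among them, and 0 were lower. Over all features tested, 6.59% were called higher and 9.18% lower. 4 of the 8, MIR222, MIR181B1, MIR23B and MIR27B, were under 1 FPKM in every empty-vector library and entered only through the pre-miR-203a group, so a difference was built into their entry and their calls lend no support to the count. Without any filter on low values, MIR222 and MIR181B1 were called (limma adjusted p = 0.0097 and 0.012), and MIR23B and MIR27B were not (limma adjusted p = 0.061 and 0.067). Before adjustment, limma gave a p under 0.05 to 8 hairpins that were higher and to 1 that was lower, against 13% and 17.1% of all features tested. Limma-voom on the recovered reads called 7 hairpins higher, where it called 8.32% of all features higher, and 0 lower, where it called 9.33% lower. With the replicate number as a block, limma gave 4 lower calls and 9 higher ones, where it called 9.95% and 7.52% of all features. The 4 lower calls among 40 hairpins are thus near the share over all features. Groups were fully apart for 8 hairpins that were higher and for 1 that was lower, against 16.6% and 20.9% of all features tested. The median log2 fold change of the tested hairpins was 0.28, beside -0.01 over all features tested. The same 4 hairpins bear on this median, so the tested 40 do not stand for all 43.

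**Figure D1:**
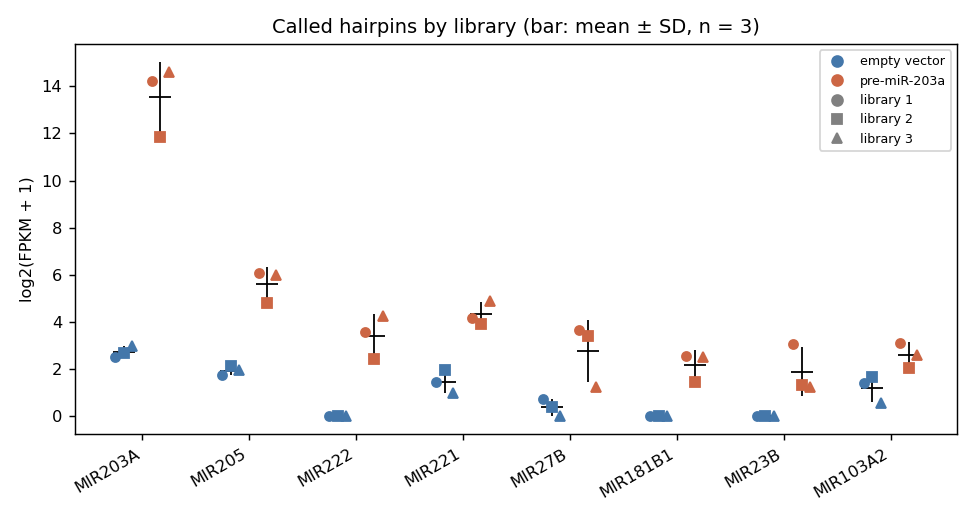
Level of the 8 called hairpins as log2(FPKM + 1), 1 point per library, with marker shape for the library number and a bar for mean ± SD of 3 libraries. The groups are apart for each hairpin, and MIR222, MIR181B1 and MIR23B are at 0 in every empty-vector library.

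5 of the 8 were called under each of the 13 other settings of the analysis: MIR203A, MIR205, MIR221, MIR222 and MIR181B1. Among these settings, no filter and a minimum of 10 reads kept the same features and gave the same fit. A call lost there is counted under both, here and in the other counts of settings. The remaining settings kept the entry minimum of the main fit, which MIR222 and MIR181B1 passed only through the pre-miR-203a group. MIR27B lost its call in 7 of the 13, among them the omission of any empty-vector library or of pre-miR-203a library 1 or 2. MIR23B lost it in 6, among them the omission of any empty-vector library or of both libraries numbered 3. MIR103A2 lost it in 9, among them limma-voom, the smaller pseudocount and the omission of empty-vector library 1 or 3 or of pre-miR-203a library 1 or 3.

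MIR205 is the precursor of miR-205, an epithelial microRNA known for holding down the mesenchymal regulators ZEB1 and ZEB2. The hairpin (chr1:209432133-209432242, plus strand) lies in an exon of its host, the noncoding gene MIR205HG. It had 2.31, 3.37 and 2.85 FPKM with the empty vector and 66.6, 26.6 and 61.9 FPKM with pre-miR-203a. These rest on 4, 13 and 9 reads against 122, 61 and 52, so all 3 pre-miR-203a libraries stood well above all 3 empty-vector libraries. The means were 2.84 ± 0.53 and 51.7 ± 21.9 FPKM (SD, n = 3). The log2 fold change was 3.68 ± 0.33 (SE, limma adjusted p = 0.0022). Pooled RPM was 15.9 times as high (95% exact interval 10.6 to 24.9, counting error only, as for the other intervals here). The host MIR205HG had 28.4, 27.7 and 28.97 FPKM with the empty vector and 174, 102 and 201 FPKM with pre-miR-203a. Its log2 fold change was 2.39 ± 0.24 (SE, limma adjusted p = 0.0024), and it was called in every setting too. Host and hairpin were thus both higher, each with library 2 the lowest of the pre-miR-203a group. The log2 ratio of hairpin to host, each with 1 FPKM added, was 1.29 higher with pre-miR-203a, and the groups did not overlap. The exact two-sided permutation test gave p = 0.10, the smallest that 3 against 3 allows, and the p adjusted over the 10 ratios computed was 0.20 or more for each of them. The hairpin overlaps the host's exon, and how the counting shared such reads is not given in the sources used here.

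MIR221 and MIR222 lie 748 bases apart on the minus strand of chromosome X, in an intron of the noncoding gene MIR222HG, and their 3′ arms share the seed shown above. The mature pair is known for targeting the cell-cycle inhibitor CDKN1B and is more abundant in basal than in luminal breast lines. MIR221 (chrX:45746157-45746266) had 1.73, 2.85 and 0.9495 FPKM with the empty vector and 16.9, 14.0 and 28.6 FPKM with pre-miR-203a, from 3, 11 and 3 reads against 31, 32 and 24. MIR222 (chrX:45747015-45747124) had 0 reads in each empty-vector library and 10.9, 4.36 and 17.9 FPKM with pre-miR-203a, from 20, 10 and 15 reads. Both hairpins were lowest in library 2 and highest in library 3 of the pre-miR-203a group, and neither overlapped between groups. The log2 fold change was 2.86 ± 0.32 for MIR221 (SE, limma adjusted p = 0.0032), with pooled RPM 9.02 times as high (5.32 to 16.2). For MIR222 it was 3.41 ± 0.41 (SE, limma adjusted p = 0.0039), a value set by the added 1 FPKM, since the empty-vector libraries were at 0. It was 6.58 with 0.1 FPKM added and 5.60 by limma-voom. Set against a floor of 3 reads over the empty-vector group, MIR222 was 26.4-fold higher in RPM. That ratio takes the pre-miR-203a reads as exact, so it is not a lower bound.

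The host of that pair was not called. MIR222HG had 5.73, 7.07 and 1.04 FPKM with the empty vector and 13.3, 10.3 and 12.5 FPKM with pre-miR-203a, so the groups did not overlap and empty-vector library 3 was far below the others. Its log2 fold change was 1.43 ± 0.48 (SE, limma adjusted p = 0.090). Without empty-vector library 3 it was 0.81 (limma adjusted p = 0.030), and without both libraries numbered 3 it was 0.78 (limma adjusted p = 0.021). The log2 ratio of hairpin to host was 1.43 higher for MIR221 (exact permutation p = 0.10) and 1.98 higher for MIR222 (exact permutation p = 0.20), or 4.85 with 0.1 FPKM added.

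MIR181B1 gives miR-181b, one of a family known from lymphocyte development and from several solid tumours. It lies at chr1:198858873-198858982 on the minus strand, in an intron of the noncoding gene MIR181A1HG. It had 0 reads in every empty-vector library and 4.91, 1.75 and 4.76 FPKM with pre-miR-203a, from 9, 4 and 4 reads. The log2 fold change was 2.18 ± 0.29 (SE, limma adjusted p = 0.0046). It too depends on the added constant, at 5.15 with 0.1 FPKM added and 4.31 by limma-voom. Against the same floor the hairpin was 9.99-fold higher in RPM, again with its own reads taken as exact. The host did not pass the entry minimum, with 2, 3 and 0 reads against 19, 17 and 15. Without a filter on low values, the same fit as with a minimum of 10 reads, it was called higher. The log2 fold change was 0.29 (limma adjusted p = 0.043). Its reads too were fewer in each empty-vector library than in any pre-miR-203a library. The hairpin resembles that of MIR181B2 elsewhere in the genome, and the treatment of reads with several matches is not given in the sources used here.

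**Figure D2:**
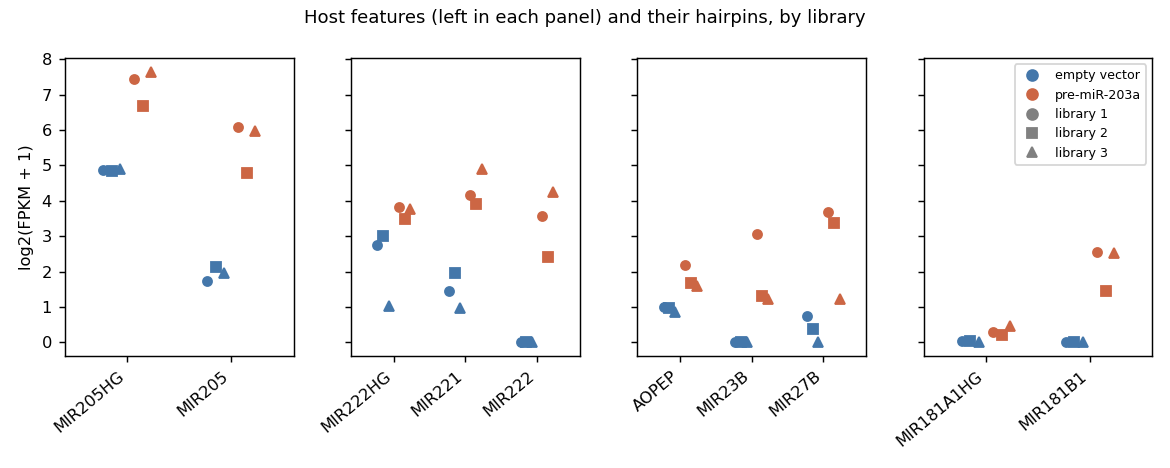
Level as log2(FPKM + 1) of 4 host features, left in each panel, and of the 6 called hairpins in them, 1 point per library. MIR205HG and MIR205 are apart between groups, empty-vector library 3 is lowest for MIR222HG, and MIR181A1HG is near 0 in every library while MIR181B1 reaches 4.91 FPKM.

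MIR23B and MIR27B lie 140 bases apart on the plus strand of chromosome 9, in an intron of AOPEP, which encodes an aminopeptidase and is named C9orf3 in GENCODE 29. miR-27b is known for regulating lipid metabolism genes and miR-23b for regulating cytoskeletal and migration genes. MIR27B (chr9:95085445-95085541) had 0.656, 0.294 and 0 FPKM with the empty vector and 11.8, 9.40 and 1.35 FPKM with pre-miR-203a, from 1, 1 and 0 reads against 19, 19 and 1. MIR23B (chr9:95085208-95085304) had 0 reads in each empty-vector library and 7.43, 1.48 and 1.35 FPKM with pre-miR-203a, from 12, 3 and 1 reads. The separation of the groups therefore rests on a single read in pre-miR-203a library 3 for each hairpin. On the log2 scale the difference was 2.40 ± 0.60 for MIR27B (SE, limma adjusted p = 0.036), with pooled RPM 34.4 times as high (8.90 to 294), and it was 4.14 with 0.1 FPKM added and 4.12 by limma-voom. For MIR23B it was 1.87 ± 0.46 (SE, limma adjusted p = 0.034). Against the floor its RPM was 9.40-fold higher, again with its own reads taken as exact. The log2 difference of MIR23B was 4.69 with 0.1 FPKM added and 3.93 by limma-voom. It was 1.27 without pre-miR-203a library 1, which holds 12 of the 16 reads. Over the 13 other settings the limma adjusted p ran from 0.0044 to 0.113 for MIR27B and from 0.0071 to 0.106 for MIR23B.

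AOPEP itself had 0.977, 0.945 and 0.801 FPKM with the empty vector and 3.55, 2.19 and 2.04 FPKM with pre-miR-203a. AOPEP was under 1 FPKM in every empty-vector library, so it too entered the test only through the group where it is high, and its call lends no support to those of the hairpins. All 3 pre-miR-203a libraries were above all 3 empty-vector libraries, with a log2 fold change of 0.89 ± 0.17 (SE, limma adjusted p = 0.015). Omitting any 1 empty-vector library brought the limma adjusted p of AOPEP to 0.0502 to 0.0544. The log2 ratio of hairpin to host was 0.98 higher for MIR23B (exact permutation p = 0.10) and 1.51 higher for MIR27B (exact permutation p = 0.20). With 0.1 FPKM added these were 3.31 and 2.76, and without pre-miR-203a library 1 that of MIR23B was 0.57.

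MIR103A2 is 1 of a pair of loci that give the same mature miR-103a, a microRNA known for targeting DICER1. It lies at chr20:3917494-3917571 on the plus strand in an intron of PANK2, a pantothenate kinase. It had 1.63, 2.19 and 0.446 FPKM with the empty vector and 7.70, 3.08 and 5.04 FPKM with pre-miR-203a, from 2, 6 and 1 reads against 10, 5 and 3. The lowest pre-miR-203a library and the highest empty-vector library lie close, at 3.08 and 2.19 FPKM. On the log2 scale the difference was 1.38 ± 0.36 (SE, limma adjusted p = 0.040), with pooled RPM 3.53 times as high (1.504 to 8.91), and the limma adjusted p ran from 0.033 to 0.122 over the other settings. PANK2 had 8.94 to 11.5 FPKM with the empty vector and 10.2 to 11.8 FPKM with pre-miR-203a, with a log2 fold change of 0.08 ± 0.13 (SE, limma adjusted p = 0.75). The log2 ratio of hairpin to host was 1.30 higher with pre-miR-203a (exact permutation p = 0.10). Every pre-miR-203a library had a higher ratio than every empty-vector library.

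3 hairpins averaged 10 or more reads per library and were not called. MIR25 belongs to the cluster in an intron of MCM7, a subunit of the replicative helicase, and lies at chr7:100093560-100093643 on the minus strand. It had 17.4, 18.0 and 0.414 FPKM with the empty vector and 11.4, 9.14 and 0 FPKM with pre-miR-203a, from 23, 53 and 1 reads against 16, 16 and 0. Within each number the pre-miR-203a library was the lower, and both libraries numbered 3 were at or near 0. Its log2 fold change was -0.66 ± 1.27 (SE, limma adjusted p = 0.79). With the replicate number as a block it was -0.66 ± 0.12 (SE, limma adjusted p = 0.026), and without both libraries numbered 3 it was -0.74 ± 0.12 (SE, limma adjusted p = 0.013). MCM7 had 83.1, 89.3 and 58.1 FPKM with the empty vector and 33.9, 46.5 and 39.3 FPKM with pre-miR-203a. It was lower by a log2 fold change of -0.92 ± 0.19 (SE, limma adjusted p = 0.019), and its library 3 values were not near 0, unlike those of the hairpin in its intron. The call of MCM7 was lost when pre-miR-203a library 1, or library 1 or 2 of the empty vector, was omitted, with a limma adjusted p of up to 0.0793. The log2 ratio of MIR25 to MCM7 was 0.26 higher with pre-miR-203a (exact permutation p = 0.60).

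MIR647, in an intron of the uridine kinase gene UCKL1, had 7.95, 7.13 and 0 FPKM with the empty vector and 8.13, 6.50 and 0 FPKM with pre-miR-203a. Its groups overlapped, with a log2 fold change of -0.03 ± 1.08 (SE, limma adjusted p = 0.99). MIR7161, in an intron of TMEM181, had 6.81, 10.5 and 1.24 FPKM with the empty vector and 10.0, 8.001 and 4.68 FPKM with pre-miR-203a. Its groups overlapped too, with a log2 fold change of 0.49 ± 0.58 (SE, limma adjusted p = 0.63). Library 3 was the lowest of each group for both hairpins.

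**Figure D3:**
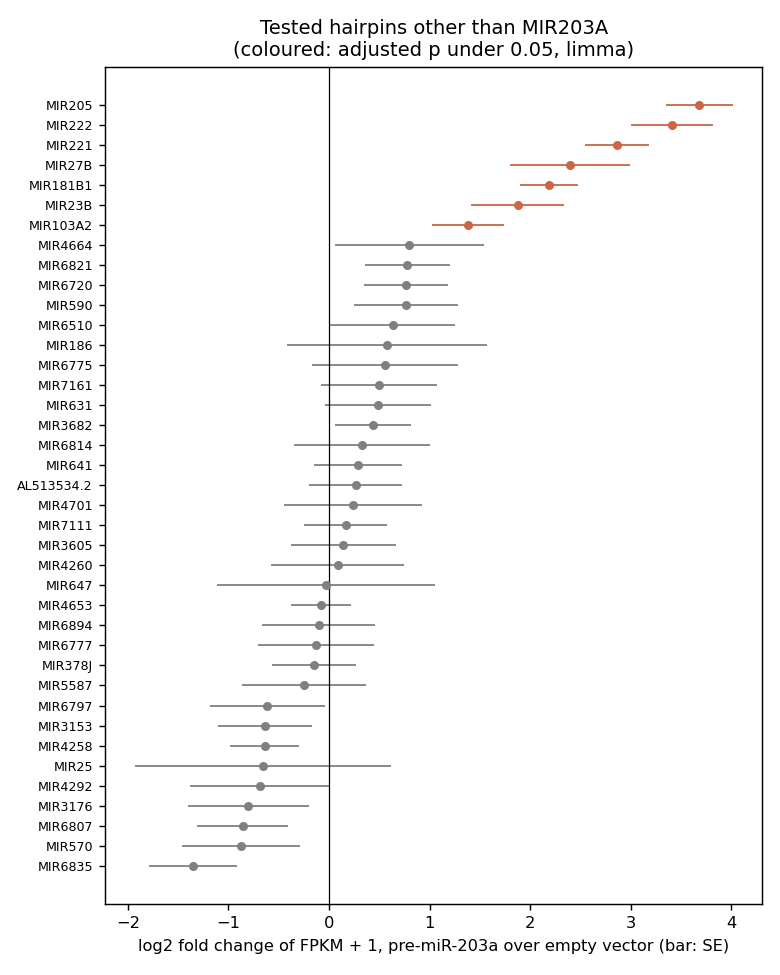
Log2 fold change of FPKM + 1, pre-miR-203a over empty vector, for the 39 tested hairpins other than MIR203A, with bars for the SE and colour for a limma adjusted p under 0.05. The 7 coloured hairpins run from 1.38 to 3.68, and the lowest point is MIR6835 at -1.35.

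The other 32 hairpins had 10 to 44 reads over the 6 libraries and at most 23 in any one. Of these, 29 were tested, with log2 fold changes from -1.35 to 0.80, 16 positive and 13 negative, and limma adjusted p from 0.083 to 0.954. In empty-vector library 3, 15 of the 32 had 0 reads, in pre-miR-203a library 3 it was 21, and in both it was 11. The 23 reads were of MIR186, which had 6, 9 and 0 reads with the empty vector and 6, 23 and 0 with pre-miR-203a, so its groups overlapped. It is named for that value alone.

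MIR6835 is named after its values were seen, as the 1 tested hairpin that was lower without overlap. It lies in an intron of HMGA1, a chromatin architectural protein gene. It had 2.98, 5.79 and 1.09 FPKM with the empty vector and 0.938, 0.7501 and 0 FPKM with pre-miR-203a, from 3, 13 and 2 reads against 1, 1 and 0. On the log2 scale it differed by -1.35 ± 0.44 (SE, limma adjusted p = 0.083), and -1.35 ± 0.21 with the replicate block (SE, limma adjusted p = 0.016). The block also gave calls for MIR3153 at -0.64 (limma adjusted p = 0.034), MIR3176 at -0.80 (limma adjusted p = 0.041) and, higher, MIR3682 at 0.44 (limma adjusted p = 0.037). Of the 4 hairpins lower with the block, MIR25 and MIR6835 were also called lower without both libraries numbered 3, a setting that called 17.3% of all features lower.

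By GENCODE 29 on GRCh38, 31 of the 43 hairpins lie in introns of protein-coding genes on the same strand, 4 in introns of noncoding genes, 3 in exons of protein-coding genes on the same strand, 2 in exons of protein-coding genes on the opposite strand and 1, MIR205, in an exon of a noncoding gene. The remaining pair, MIR203A and MIR3685, has no spanning gene. Besides MIR203A, the hairpins called in every setting are 4 of the 5 that lie in noncoding genes, the fifth being MIR570. Of these 4, MIR221 and MIR222 share a host, and MIR222 and MIR181B1 entered the test only through the pre-miR-203a group. The 4 calls therefore lend no support to a pattern by position. The position classes were not tested against each other. For 40 hairpins a spanning feature was listed, 37 distinct hosts in all.

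Hairpin and host were both tested for 35 pairs with 32 distinct hosts, and the log2 fold changes had the same sign in 23. Across these hairpins Spearman's rho was 0.65 and Pearson's r 0.78. The points share libraries, hosts and possibly reads, so these are descriptions only. Among them are the pairs of MIR222, MIR23B and MIR27B, hairpins that entered only through the pre-miR-203a group. Over the 29 pairs with an uncalled hairpin rho was 0.46. Of the 7 called hairpins with a listed host, 6 had a tested host. The host was called higher for 3 of them, MIR205 and, through their shared host AOPEP, MIR23B and MIR27B. AOPEP and its hairpins entered the test only through the group where they are high, so their calls lend no support to this count. Of the other 33 hairpins with a listed host, the host was called higher for 3 and lower for 4, counts near the 6.59% and 9.18% of all features tested. One of the 3, PIM3, lost its call in 7 of the 13 other settings, the replicate block among them (limma adjusted p = 0.056).

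The hosts called lower are MCM7, the pair CKS2 and CKS1B, which encode cyclin-dependent kinase subunits, and ATAD2, a chromatin ATPase. CKS2 went from 127 to 134 FPKM with the empty vector to 52.4 to 71.9 FPKM with pre-miR-203a, a log2 fold change of -1.05 ± 0.14 (SE, limma adjusted p = 0.0045), while MIR3153 in its intron had 3, 8 and 1 reads against 1, 3 and 0. CKS1B, the host of MIR4258, changed by -0.99 ± 0.21 on the log2 scale (SE, limma adjusted p = 0.020). Among hosts called higher, KRT15, a basal keratin, went from 11.0 to 26.6 FPKM to 44.6 to 94.0 FPKM (log2 fold change 1.74 ± 0.36 SE, limma adjusted p = 0.019). MIR6510, in an exon of KRT15, had 1, 2 and 1 reads against 3, 6 and 0, too few to set beside a host with 1668 reads or more in each library. MIR6510 was called higher only without pre-miR-203a library 3 and without both libraries numbered 3. The call of CKS1B was lost in 3 of the 13 other settings, when pre-miR-203a library 1, or library 1 or 2 of the empty vector, was omitted. That of KRT15 was lost in 3 too, when pre-miR-203a library 1, or library 1 or 3 of the empty vector, was. CKS2 and ATAD2 were called in each of the 13, as was ADAMTSL4, the host of MIR4257. ADAMTSL4 was higher, with a log2 fold change of 1.67 ± 0.22 (SE, limma adjusted p = 0.0045). MIR4257, which was not tested, had 1, 2 and 0 reads with the empty vector and 7, 5 and 0 with pre-miR-203a. In bulk RNA, fewer cells of a type and less RNA per cell cannot be told apart for any of these features.

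**Figure D4:**
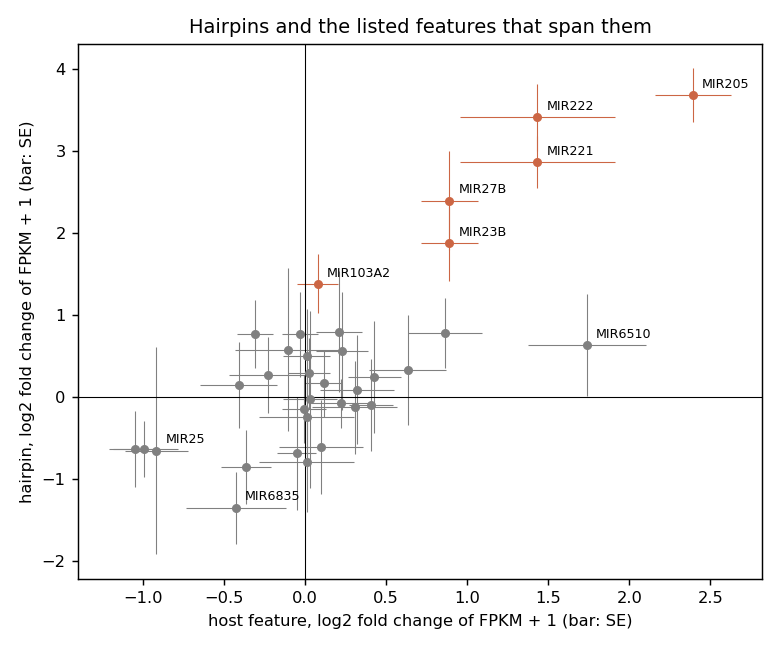
Log2 fold change of the hairpin against that of the listed feature spanning it, for the 35 pairs tested, with bars for the SE and colour for called hairpins. MIR205 stands at 2.39 for its host and 3.68 for itself, and MIR103A2 at 0.08 and 1.38.

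The 31 hairpins in introns of protein-coding genes served to compare libraries, since none of them is carried by the vector. Among the 31 are MIR23B, MIR27B and MIR103A2, which were called higher. These had 12, 19 and 10 reads in pre-miR-203a library 1 and 0, 1 and 2 in empty-vector library 1. The summed RPM of the 31 was 7.82, 8.69 and 1.22 with the empty vector and 9.54, 8.35 and 3.14 with pre-miR-203a. The reads behind these sums were 123, 305 and 35 against 159, 174 and 24. The 95% exact Poisson intervals of the libraries numbered 3, 0.849 to 1.69 and 2.01 to 4.68, lie below those of the other 4 libraries, the lowest of which begins at 6.50. Reads of snoRNA features, small RNAs that mostly come from introns too, summed to 24.99, 29.8 and 11.0 RPM with the empty vector and 23.6, 27.4 and 16.2 RPM with pre-miR-203a, so library 3 was again the lowest of each group. The part of these library differences in the uncalled hairpins was not tested. Within the pre-miR-203a group, 6 of the 8 called hairpins, MIR203A among them, were lowest by FPKM in library 2. MIR221 and MIR222, among the 6, share a host. The share of all features lowest in that library was not counted, so the 6 are a description only. For MIR181B1, libraries 2 and 3 held 4 reads each. The exceptions, MIR23B and MIR27B, were lowest in library 3. With the empty vector, MIR221, MIR27B and MIR103A2 were lowest in library 3, MIR203A and MIR205 in library 1, and the rest were at 0.

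**Figure D5:**
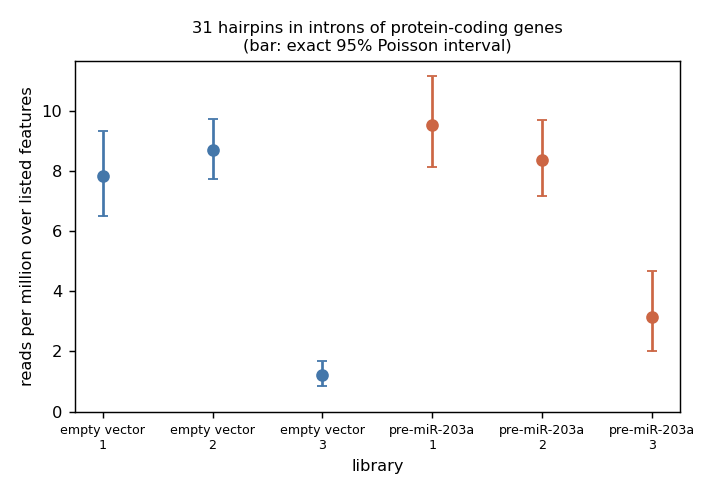
Summed RPM (reads per 1000000 reads over listed features) of the 31 hairpins in introns of protein-coding genes, by library, with exact 95% Poisson intervals for counting error. Both libraries numbered 3, at 1.22 and 3.14, lie below the other 4, at 7.82 to 9.54.

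Other small RNA classes were counted in the same fit, beside 6.59% higher and 9.18% lower over all features tested. In limma, 0 of 41 tested snoRNA features were called in either direction. Before adjustment limma gave 1 of them a p under 0.05, and limma-voom called 0. Of 7 tested snRNA features 1 was called higher and 0 lower, with 0 by limma-voom. Among long noncoding RNAs, the class that holds MIR205HG and MIR222HG, 31 of 537 tested features were called higher, near the share over all features, and 14 lower. The share of hairpins called was not tested against these classes.

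The genes that make and use microRNAs were read from a list of 22, of which 20 were listed and tested, while LIN28A and LIN28B were not listed. In limma 2 were higher, near the 6.59% over all features tested, and 0 were lower, where 9.18% of all features were. Before adjustment 4 that were higher and 3 that were lower had a limma p under 0.05, where limma gave 13% and 17.1% of all features such a p. Limma-voom called 4 higher and 1 lower, against 8.32% and 9.33% of all features. DICER1, the enzyme that cuts hairpins to duplexes, had 10.0, 9.39 and 6.62 FPKM with the empty vector and 17.2, 16.2 and 11.5 FPKM with pre-miR-203a (log2 fold change 0.72 ± 0.20 SE, limma adjusted p = 0.047). AGO4, an Argonaute protein, had 3.08, 2.55 and 2.68 FPKM against 5.21, 4.07 and 4.11 FPKM (0.53 ± 0.13 SE, limma adjusted p = 0.033). All pre-miR-203a libraries were above all empty-vector libraries for both genes. Each call was lost in 7 of the 13 other settings, among them the omission of any library but pre-miR-203a library 3, with a limma adjusted p of up to 0.152 for DICER1 and 0.129 for AGO4. DROSHA, which cuts the primary transcript, had 18.8 to 20.1 FPKM with the empty vector and 10.4 to 15.9 FPKM with pre-miR-203a (-0.49 ± 0.16 SE, limma adjusted p = 0.081), and its partner DGCR8 had 5.01 to 9.51 FPKM and 12.5 to 13.4 FPKM (0.70 ± 0.21 SE, limma adjusted p = 0.067). The median log2 fold change of the 20 genes was -0.03, beside -0.01 over all features tested.

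The authors' deposited table gave an adjusted p for 7 of the 43 hairpins and left it empty for 36. In the authors' deposited table, 4 had an adjusted p under 0.05, all higher with pre-miR-203a: MIR203A with a log2 fold change of 11.46, MIR222 with 7.35, MIR205 with 4.15 and MIR221 with 3.38. MIR23B, MIR27B and MIR181B1 had unadjusted p of 0.0018, 2.4e-04 and 2.9e-04 in the authors' deposited table, with the adjusted p empty. The 4 hairpins with an adjusted p under 0.05 there are among the 5 called in every setting here, and the fifth, MIR181B1, is one of those 3. Both analyses rest on the same libraries, so this overlap lends no support to the calls.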

How the data were processed

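The authors deposited FPKM values of 18999 features in 6 libraries. A second table that they deposited held TPM values, a baseMean signal, log2 fold changes, p-values and adjusted p-values of a DESeq2 comparison, per the file headers. Those log2 fold changes were turned in sign to pre-miR-203a over empty vector, and the TPM values were not used. The submitters' processing notes name DESeq2 1.28.1, featureCounts 2.0.0, FastQC 0.11.5 and MultiQC 1.6, with the build hg38. The sources used here do not give the aligner, annotation release, strand setting or overlap rule. Hairpins with a baseMean under about 0.955, the smallest listed, were not analysed here.

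Whole reads were recovered as FPKM times length times the library's total, both derived from the deposited values. Each total was the smallest number that made the values of small RNA features whole at their annotated lengths. The length of every feature was then solved from the authors' baseMean, so the recovered reads depend on that column. With these, 100% of values were whole within 0.01. Limma 3.58.1 (R 4.3.3) was fitted to log2(FPKM + 1), with no term but the group and with trended, robust eBayes. A feature entered if 3 libraries or more reached FPKM 1. P-values were adjusted by Benjamini-Hochberg over all 11271 features. The files hold no raw counts, so the planned count tests gave way to this one. Hosts and coordinates came from GENCODE 29, and sequences from RefSeq. Hairpins were described in full where called or with a mean of 10 or more reads per library. The hairpins, the gene lists and this rule were chosen with earlier results of these data known. Figures and counts were made in Python 3.11.15 with matplotlib 3.10.9, scipy 1.17.1, pandas 2.3.3 and numpy 2.4.6.

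Libraries of the same replicate number deviated together from their group means, with correlations of 0.433, 0.269 and 0.321, all over 0.1, so the numbers were taken to pair the libraries. Between different numbers they ran from -0.417 to 0.221, the highest being empty-vector library 1 with pre-miR-203a library 2. That value too is over 0.1, so the limit does not separate matched from unmatched numbers. Deviations from a mean of 3 libraries sum to 0, which also ties the correlations to each other. The pairing is therefore an assumption. The numbers are those of the titles, and the labels name no shared batch or day. The main fit and the permutation tests left this pairing out and treated the libraries as unpaired. Only the replicate block used it, and its calls are given beside the main ones. Chi-square values per feature between recovered reads of replicates were 8.86 to 70.4, so no library was a copy of another.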

Additional observations from a re-analysis of the deposited data

How the results depend on the processing

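Alternatives were a pseudocount of 0.1, no filter, a minimum of 10 recovered reads, median-of-ratios rescaling, limma-voom on recovered reads, the replicate block, each library left out in turn and, chosen after seeing the data, both libraries numbered 3 left out. Rescaling moved the median of all features by less than 0.1 on the log2 scale. The hairpins called higher numbered 5 without the filter, against 8. The read minimum kept all 18999 features, so it repeated the fit without the filter. Both are counted among the 13 settings. Leaving out 1 library gave 5 to 8 higher and 0 to 1 lower. 4 were lower with the replicate block. Without both libraries numbered 3, 8 were higher and 4 lower, where 11% of all features were called higher and 17.3% lower. MIR6510 and MIR6775 were higher there and MIR4258 and MIR6777 lower, none of them called in the main fit. With 1 library left out, MIR6510 was called higher without pre-miR-203a library 3. MIR6807 was called lower without pre-miR-203a library 2, and MIR6835 without empty-vector library 3. Features called higher were 743, from 323 to 919 with 1 library left out and 1239 without both libraries numbered 3. Features called lower were 1035, from 422 to 1338 and 1951. The lowest counts came without empty-vector library 1. Features called higher also fell by more than 1.5 times to 373 and 441 when empty-vector library 2 or 3 was left out, and to 342 when pre-miR-203a library 1 was. Features called lower fell likewise to 527 and 541 when library 2 of the empty vector or library 1 of pre-miR-203a was. The replicate block changed no other call among the hairpins described in full than that of MIR25.

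Signs turned among uncalled hairpins. The log2 fold change of MIR25 was 0.032 by limma-voom, and with 1 library left out it ran from -1.90 (empty-vector library 3) to 0.51 (pre-miR-203a library 3). That of MIR647 was 0.0015 with rescaling and 1.04 by limma-voom, and ran from -1.06 to 0.99 over the same pair of libraries. That of MIR7161 ran from -0.20, when empty-vector library 3 was left out, to 0.98. The log2 ratio of hairpin to host turned for MIR25 with a pseudocount of 0.1, to -0.38, and with a library left out it ran from -0.80 to 1.42. With a library left out it ran from -0.93 to 0.86 for MIR647 and from -0.17 to 0.99 for MIR7161. The cause was not tested. The planned edgeR and DESeq2 fits on recovered reads were not run, and limma-voom was the one fit made on those reads.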
